A study of Mus musculus with 8 samples.

Results

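The genes described here are 44 genes of DNA replication and mitosis, chosen as a list of S phase and mitosis genes by their annotated symbols. Their values were read on arrays of sorted alveolar epithelial cells from embryonic mouse lungs. A spot was taken as a member where the array annotation gave it one of these symbols, and where a gene had several spots the one with the highest mean over the 8 arrays stood for it. With this rule 43 of the 44 genes were measured among 24306 genes in all, 18 of them replication genes and 25 mitosis genes, and the signal of Ccnb1 was not analysed here. The cells were type I (AECI) and type II (AECII) alveolar epithelial cells, sorted by FACS at E18.5, with 2 arrays in each of 4 groups, namely AECI control, AECI experimental, AECII control and AECII experimental. Experimental embryos carried the label Fgfr2bflox, and tamoxifen was given to their mothers at E14.5 and E15.5. Control embryos came from other pregnant females and were prepared in the same way, so that genotype and litter cannot be told apart. By its title, the series inhibited signalling of Fgfr2b, a receptor of fibroblast growth factors, in Sftpc-expressing cells. Which promoter drove recombination, how the sort was gated and how many embryos made up a sample were not stated in the sources read. The series text calls the replicates biological without saying whether they were separate embryos or litters, so a p-value here measures spread among these samples, which may be technical in part.

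A dividing cell copies its DNA in S phase and separates the copies in mitosis, and both steps need proteins that are made in a wave and then removed. Genes of the first wave are switched on largely by E2F factors once the retinoblastoma proteins release them, and they license origins, run the fork and supply nucleotides. Genes of the second wave are driven by Mybl2 with the MuvB complex and by Foxm1, and in resting cells the DREAM complex keeps many of them silent. In the late embryonic lung, alveolar progenitors slow their division as they become flat AT1 cells or surfactant-producing AT2 cells. In sorted bulk samples, fewer dividing cells and less RNA per dividing cell cannot be told apart.

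The start regions of these genes are shown because the members carry letters by which the 2 waves are usually distinguished. Windows of 300 bases, from 250 bases before to 50 bases after the annotated start, were taken from RefSeq on GRCm38.p6 and matched 36 of the 44 members by symbol, among 27025 genes. The mitosis windows include that of Ccnb1, whose signal was not analysed. On both strands they were searched for E2F letters (TTCCCGC, or with other middle letters TTGGCGC, or also TTCGCGC, or lastly TTGCCGC), for the cell cycle homology region, CHR (TTTGAA, or with a changed middle TTCGAA), and for CCAAT. Matches of different motifs could overlap, and the first window of each gene in the table was read. E2F letters stood in 10 of 15 replication windows (66.7%, 95% Wilson interval 41.7 to 84.8) and in 4 of 21 mitosis windows (19%, 7.67 to 40), against 9.69% of all promoters. CHR letters stood in 2 of 15 replication windows (13.3%, 3.74 to 37.9) and in 17 of 21 mitosis windows (81%, 60 to 92.3), against 19.4% of all promoters. CCAAT stood in 66.7% of replication and 90.5% of mitosis windows, against 37.9% of all. When only the 250 bases before the start were read, CHR letters stood in 8 of 21 mitosis windows (38.1%), since many of them lie just after the start. A match describes letters in the window and is not a measured site. A pair of windows from each list follows, for genes whose signals are given further on. Only replication genes with E2F letters and mitosis genes with CHR letters in the window could be chosen. Of these, the 2 of smallest p between genotypes in AECI were taken from each list. They are printed 5′ to 3′ on the gene's own strand with the matched letters of all 3 motifs in capitals. The Uhrf1 window, the first of the 2 annotated for this gene, lies at chr17:56303087-56303386 (plus strand), Rrm2 at chr12:24708004-24708303 (plus), Cenpa at chr5:30666636-30666935 (plus) and Cdc20 at chr4:118437294-118437593 (minus).
Uhrf1: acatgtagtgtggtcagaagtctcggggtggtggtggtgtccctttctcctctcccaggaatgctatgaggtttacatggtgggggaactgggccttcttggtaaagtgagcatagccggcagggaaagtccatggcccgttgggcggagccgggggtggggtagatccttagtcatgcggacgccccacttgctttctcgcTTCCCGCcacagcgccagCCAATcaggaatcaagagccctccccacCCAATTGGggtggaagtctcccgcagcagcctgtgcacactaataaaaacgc
Rrm2: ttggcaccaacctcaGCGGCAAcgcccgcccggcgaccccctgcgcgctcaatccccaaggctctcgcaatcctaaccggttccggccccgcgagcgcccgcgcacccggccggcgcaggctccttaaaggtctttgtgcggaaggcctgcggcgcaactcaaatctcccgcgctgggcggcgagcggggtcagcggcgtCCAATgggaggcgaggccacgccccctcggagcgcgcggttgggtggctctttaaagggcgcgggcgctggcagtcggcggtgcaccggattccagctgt
Cenpa: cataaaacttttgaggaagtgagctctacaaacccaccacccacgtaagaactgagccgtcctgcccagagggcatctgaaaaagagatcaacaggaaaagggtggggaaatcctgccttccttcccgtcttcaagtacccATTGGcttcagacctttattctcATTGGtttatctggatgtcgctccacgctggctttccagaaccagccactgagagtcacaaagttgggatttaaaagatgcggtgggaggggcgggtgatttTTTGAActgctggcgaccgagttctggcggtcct
Cdc20: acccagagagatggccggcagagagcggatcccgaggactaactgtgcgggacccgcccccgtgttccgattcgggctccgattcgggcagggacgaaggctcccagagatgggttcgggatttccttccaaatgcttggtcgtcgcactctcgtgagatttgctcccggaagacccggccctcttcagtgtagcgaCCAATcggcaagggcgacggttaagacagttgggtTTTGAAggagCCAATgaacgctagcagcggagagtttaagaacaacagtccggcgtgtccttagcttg
By the choice made, the Uhrf1 and Rrm2 windows hold E2F letters and the Cenpa and Cdc20 windows hold CHR letters. Apart from that choice, Uhrf1 and Rrm2 hold no CHR letters, Cenpa and Cdc20 hold no E2F letters, and all of them hold CCAAT.

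The unit of every value is the log2 signal as the authors deposited it. On every array all spots had a median of 5.18 and a lower quartile of 3.07. Of the 43 members, 36 had a mean above that median and 0 a mean below that quartile, while Dtl, Bub1b, Ttk and Nusap1 fell below the quartile on 1 or 2 arrays. AECII arrays held lower AT1 markers than AECI arrays in control lungs (median difference -3.30 over 12 markers, 9 of them past the threshold) and higher AT2 markers (median 1.0, 4 of 12 past it), but ciliated and club cell markers were also higher in AECII (medians 3.02 and 2.12). Mesothelial and mesenchymal markers were mostly higher in AECI. In AECII 4 of 5 mesothelial markers were lower and 1 higher (median -2.37), and 9 of 12 mesenchymal markers lower and 3 higher (median -1.01). Fgfr2, which carries the targeted isoform, read 11.03 and 11.37 in AECI control, 11.07 and 11.38 in AECI experimental, 12.60 and 12.62 in AECII control and 12.24 and 12.33 in AECII experimental cells, and neither genotype difference passed the test (limma adjusted p = 0.976 and 0.766). Its spot can check the labels only if it lies in the floxed exon, which is not named. Xist, a noncoding RNA made from the inactive X chromosome of females, read 3.96 on AECI control 1 and 6.53 on AECII control 2, and 13.32 to 13.90 on the other arrays, while the Y-linked Eif2s3y read 10.63 and 10.40 on those arrays and 4.33 to 5.93 elsewhere. This male pattern occurred on control arrays alone. For each comparison that uses them, main counts and medians over members are also given without such an array, as is Rrm2. Other results that rest on them, such as those of other single genes and of cell type markers, are not.

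Across the 4 groups, experimental AECI cells carried the highest signals of replication and mitosis genes. The group mean was highest there in 35 of 43 members (81.4%), against 27.6% of all genes, and lowest there in 0 of 43. The lowest mean fell in AECII control for 18 members, in AECI control for 16 and in AECII experimental for 9. By list, AECI experimental had the highest mean in 14 of 18 replication members and in 21 of 25 mitosis members. Array AECI experimental 2 was the highest of all arrays for 26 members and AECI experimental 1 for 10. The median over members of the deviation from each gene's own mean was 0.54 and 0.78 on these arrays, between -0.51 and -0.03 on the 4 control arrays, and -0.03 and 0.06 on the AECII experimental arrays. In AECI, members spread more between replicates than genes in general, with a median SD of 0.448 in control and 0.411 in experimental cells, against 0.348 and 0.32 over all genes. In AECII control and experimental cells it was 0.277 and 0.242 against 0.232 and 0.228. Mitosis members alone had a lower median SD there, 0.213 and 0.218.

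**Figure D1:**
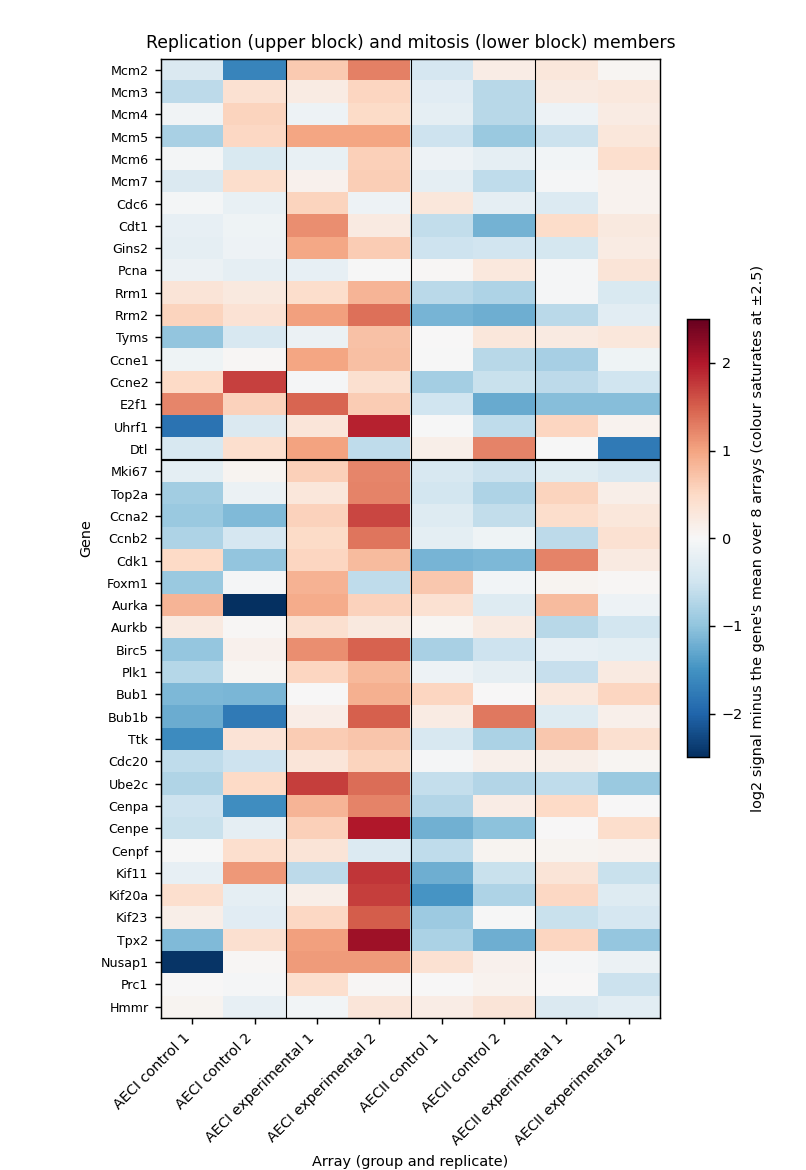
Log2 signal of each of the 43 members (rows) on each of the 8 arrays (columns, by group and replicate), shown as the difference from that gene's mean over the 8 arrays, with replication genes above and mitosis genes below the line. Both AECI experimental arrays are mostly red, with 36 and 38 members above their own mean, and colours saturate at 2.5 log2 units either way.

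The first comparison asks how replication and mitosis genes differed between experimental and control AECI. Signals were higher in experimental cells for 40 of 43 members, with a median log2 difference of 0.97 against 0.04 over all genes, of which 52.6% were higher and 47.4% lower. Mitosis genes differed more (24 of 25 higher, median 1.27) than replication genes (16 of 18 higher, median 0.47). In none of the members did the difference pass the limma test at adjusted p 0.05, where 0% of all genes passed as higher and 0.00411% (1 gene) as lower. At an unadjusted p under 0.05 there were 20 members higher and 0 lower, against 7.22% and 5.21% of all genes. When the prior followed a mean-variance trend, limma called 1 member, Birc5 (adjusted p = 0.0385), where 0.165% of all genes were called higher. The 2 arrays of each group did not overlap for 28 members that were higher and for 1 that was lower, Ccne2, against 21.2% and 18.6% of all genes.

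Among the genes that license origins, Mcm2, a subunit of the replicative helicase, read 6.08 and 4.79 in control and 7.10 and 7.69 in experimental AECI. Every experimental array lay above both controls, with a difference of 1.96 (SE 0.49, 3.9-fold, limma adjusted p = 0.262). Its partner Mcm5 read 5.23 and 6.56 in control and 7.02 on both experimental arrays (difference 1.13, SE 0.50, adjusted p = 0.432). Not all of the helicase moved alike, as Mcm4 differed by -0.06 and its arrays overlapped. Cdt1, which loads the helicase, read 5.72 and 5.81 against 7.07 and 6.14 (0.84, SE 0.38, adjusted p = 0.436). Over the 8 licensing genes the median difference was 0.47, 7 were higher, and 3 were higher without overlap, against 52.6% and 21.2% of all genes.

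Uhrf1, which carries DNA methylation onto the new strand, read 5.52 and 6.99 in control and 7.67 and 9.28 in experimental AECI, a difference of 2.22 (SE 0.69, 4.66-fold, adjusted p = 0.308). The groups did not overlap, although the replicates lay far apart in each of them. Gins2, part of the moving fork helicase, had tighter values of 7.46 and 7.56 against 8.65 and 8.32 (0.97, SE 0.30, adjusted p = 0.306). Pcna, the sliding clamp of the polymerases, stayed level at 12.78 and 12.69 against 12.71 and 12.90 (0.07, 95% interval -0.54 to 0.67).

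For nucleotide supply, all 3 genes were higher in experimental AECI without overlap, as were 21.2% of all genes. Rrm2, the cell cycle regulated subunit of ribonucleotide reductase, read 8.31 and 8.13 in control and 8.79 and 9.14 in experimental AECI (0.74, SE 0.26, adjusted p = 0.349). Tyms, which makes thymidylate, read 7.40 and 7.99 against 8.24 and 9.12 (0.98, SE 0.38, adjusted p = 0.371). Its next brightest spot differed by only 0.06, and on that spot the groups overlapped. Genes of entry into S phase went different ways. Ccne1, a cyclin that activates Cdk2, read 5.77 and 5.91 against 6.88 and 6.63 (0.92, SE 0.36, adjusted p = 0.382). The related cyclin gene Ccne2 lay lower in experimental cells, at 4.93 and 5.35 against 5.45 and 6.66 in control (-0.92, SE 0.43, adjusted p = 0.448). E2f1, itself an activator of the first wave, overlapped between the groups (0.14, SE 0.42).

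Of the mitotic cyclins, Ccna2 had the smallest adjusted p of all members in this comparison. It read 5.97 and 5.78 in control and 7.46 and 8.56 in experimental AECI (2.13, SE 0.39, 4.39-fold, adjusted p = 0.218), and the lower experimental array was still well above both controls. Ccnb2, a cyclin B, read 4.99 and 5.34 against 6.24 and 7.09 (1.50, SE 0.45, adjusted p = 0.301). Mki67, the Ki-67 protein that coats mitotic chromosomes, read 9.58 and 9.90 against 10.42 and 11.05 (0.99, SE 0.30, adjusted p = 0.299). Top2a, which untangles the copied DNA, read 6.69 and 7.42 against 7.84 and 8.80 (1.27, SE 0.43, adjusted p = 0.333). These 4 genes were apart between the groups on every array, whereas Foxm1, a driver of this wave, read 4.41 and 5.31 against 6.20 and 4.70 and overlapped. Cdk1, the kinase that starts mitosis, read 5.65 and 4.16 against 5.68 and 5.93 (0.90, SE 0.56), so that the groups were apart by a narrow margin.

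Birc5, survivin of the chromosomal passenger complex, read 8.79 and 9.86 in control and 10.91 and 11.23 in experimental AECI (1.75, SE 0.39, 3.36-fold, adjusted p = 0.25). Its partner kinase Aurkb differed far less, at 8.91 and 8.71 against 9.08 and 8.94 (0.20, SE 0.24). Aurka, the spindle pole kinase, read 7.83 and 3.90 in control, 4 log2 units apart, against 7.89 and 7.55, so that its mean difference of 1.86 (SE 1.18) rests on AECI control 2.

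The spindle checkpoint genes, whose products hold the cell before anaphase, were all higher without overlap, as were 21.2% of all genes. Bub1 read 6.06 and 6.04 in control and 7.20 and 8.08 in experimental AECI (1.59, SE 0.37, 3-fold, adjusted p = 0.257). Bub1b read 2.86 and 2.34 against 4.27 and 5.60 (2.33, SE 0.57, adjusted p = 0.261), with both controls below the lower quartile of spots, where differences are approximate. Ttk read 2.22 and 4.12 against 4.43 and 4.48 (1.28, SE 0.59, adjusted p = 0.447).

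For the anaphase-promoting complex, the activator Cdc20 read 8.49 and 8.61 against 9.42 and 9.68, a difference of 1.0 with a small error (SE 0.23, 2-fold, adjusted p = 0.257). Its ubiquitin-conjugating partner Ube2c read 6.38 and 7.63 against 8.85 and 8.52 (1.68, SE 0.43, adjusted p = 0.268). At the centromere, Cenpa, the histone that marks it, read 4.92 and 3.88 against 6.28 and 6.68 (2.08, SE 0.48, 4.24-fold, adjusted p = 0.254), and the motor Cenpe read 5.17 and 5.50 against 6.33 and 7.73 (1.70, SE 0.48, adjusted p = 0.289). Cenpf, another kinetochore gene, was the only mitosis member with a lower mean in experimental cells (-0.21), and its arrays overlapped. All 7 genes of spindle motors and midzone had a higher mean (median 0.84), and 4 of them did not overlap, against 52.6% and 21.2% of all genes. Among these 4 was Tpx2, which activates Aurka on the spindle (1.92, SE 0.72, limma adjusted p = 0.363).

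On AECI control 1, the array of male pattern, 10 members had their lowest value of all arrays, and on AECI control 2 it was 8. Without AECI control 1, 36 of 43 members were higher, the median was 0.83, and 11 members were higher at an unadjusted p under 0.05 in place of 20. Without AECI experimental 2, which held most of the highest values, 39 members were higher with a median of 0.87, and 12 passed that unadjusted limit. The median of the replication genes less that of the mitosis genes was -0.80, and -0.44 without AECI experimental 2. Among the 20 members with more than 1 spot, the next brightest spot had the same sign for 13 in this comparison, the others being Cdc6, Mcm7, Dtl, Foxm1, Ttk, Cenpf and Prc1. For Cenpf that spot gave 2.68.

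**Figure D2:**
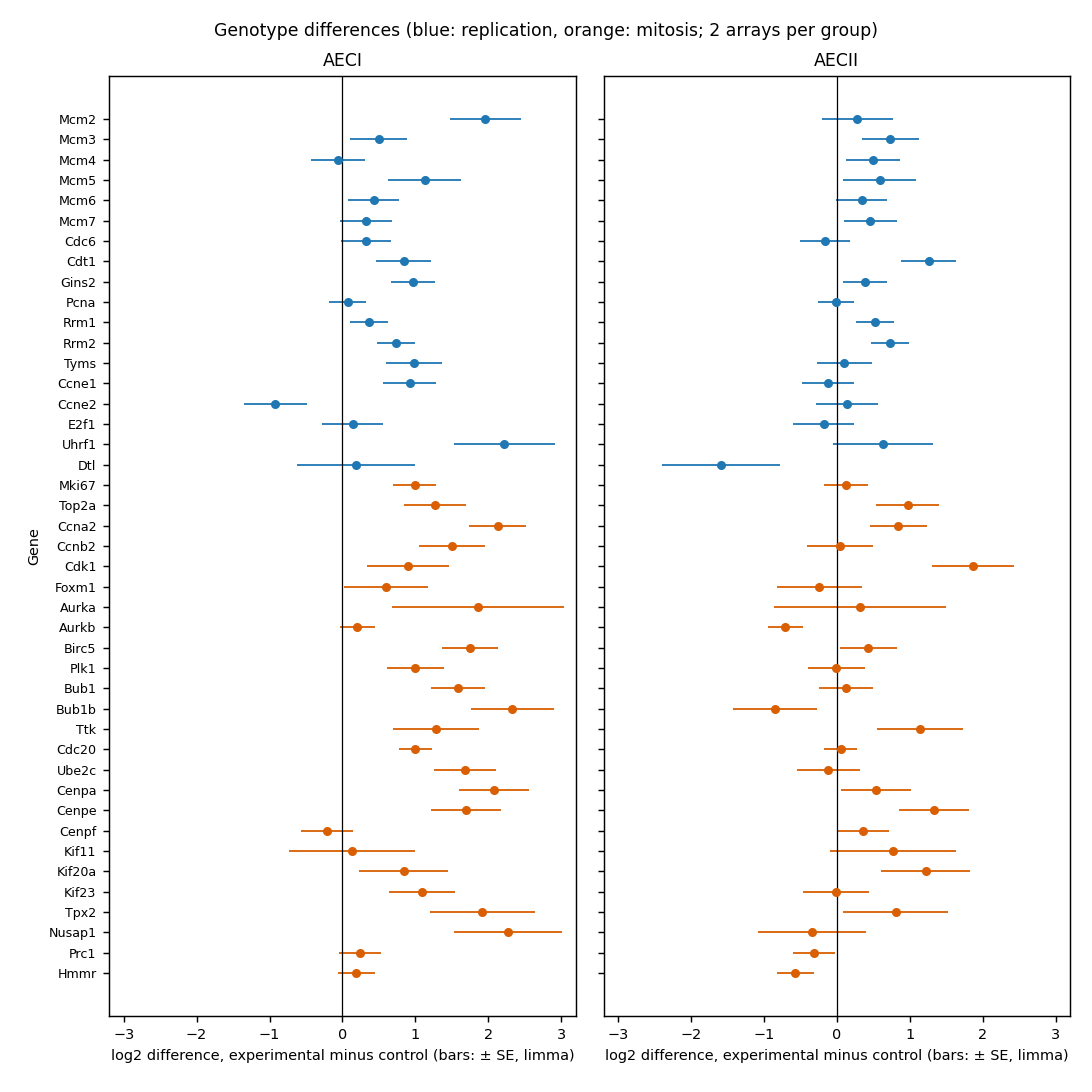
Log2 difference, experimental minus control, for each member in AECI (left) and AECII (right), with bars of 1 SE from the limma fit and 2 arrays per group, replication genes in blue and mitosis genes in orange. In AECI 40 of 43 points lie right of 0 and in AECII 29 do.

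The same comparison in AECII asks whether experimental and control cells differed in the type II population. Signals were higher in experimental AECII for 29 of 43 members, against 55.4% of all genes (44.6% lower), and the median difference was 0.31 against 0.07 over all genes. Here replication genes (13 of 18 higher, median 0.36) had a median no lower than that of mitosis genes (16 of 25 higher, median 0.13). No member passed the limma test, nor did any gene (0% higher and 0% lower). With an unadjusted p under 0.05 there were 4 members higher and 1 lower, against 4.15% and 4.09% of all genes, and with a trend in the prior 0 members passed, against 0.0535% and 0.197%. The arrays did not overlap for 18 members that were higher and 5 that were lower, where 27.3% and 19.8% of all genes did not. Those lower were Aurkb, Bub1b, Nusap1, Hmmr and Dtl. Leaving out any 1 of the AECII arrays left 1 or 2 members higher at that unadjusted limit, and leaving out any 1 of the AECI arrays gave 6 or 7. Without AECII control 2, the array of male pattern, 29 members were higher with a median of 0.28. The replication median exceeded the mitosis median by 0.24, but by 0.16 without AECII control 2 and 0.10 without AECII experimental 1, and without AECII experimental 2 it was lower (-0.03).

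Cdk1 had the largest difference of the members in AECII. It read 3.98 and 4.02 in control and 6.38 and 5.37 in experimental AECII, a difference of 1.87 (SE 0.56, 3.67-fold, limma adjusted p = 0.549), and both experimental arrays lay more than 1 log2 unit above the controls. Cdt1 read 5.30 and 4.74 against 6.38 and 6.17 (1.26, SE 0.38, adjusted p = 0.559). Cenpe read 4.52 and 4.70 against 5.73 and 6.16 (1.33, SE 0.48, adjusted p = 0.571). Rrm2 read 6.60 and 6.53 against 7.09 and 7.49 (0.73, SE 0.26, adjusted p = 0.571), close to its difference of 0.74 in AECI. These 4 genes had an unadjusted p under 0.05 and separated the groups.

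Other members were apart by smaller steps. Top2a read 7.10 and 6.79 in control and 8.12 and 7.71 in experimental AECII (0.97, SE 0.43, adjusted p = 0.624), and Ccna2 read 6.56 and 6.28 against 7.34 and 7.18 (0.84, SE 0.39, adjusted p = 0.637). Rrm1, the large subunit of ribonucleotide reductase, read 9.31 and 9.20 against 9.95 and 9.60 (0.52, SE 0.26). Mcm3 read 7.91 and 7.50 against 8.41 and 8.46 (0.73, SE 0.39), and Mcm4 10.64 and 10.17 against 10.74 and 11.06 (0.49, SE 0.37). None of these passed the test.

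Aurkb was lower in experimental AECII, at 8.0 and 8.23 against 8.73 and 8.91 in control (-0.71, SE 0.24, adjusted p = 0.564). Hmmr, a spindle assembly protein that also binds hyaluronan, read 12.16 and 12.24 against 12.70 and 12.84 (-0.57, SE 0.25, adjusted p = 0.629), but its next brightest spot gave 1.35, the opposite sign. Dtl, an adaptor that marks Cdt1 for destruction, read 3.54 and 1.78 against 3.71 and 4.79 (-1.59, SE 0.81), and its next brightest spot also turned the sign (1.42). Several genes that were far apart in AECI lay close together here, such as Bub1 (0.13, SE 0.37), Ube2c (-0.12, SE 0.43) and Mki67 (0.12, SE 0.30). The next brightest spot had the same sign for 15 of 20 members, the others being Bub1, Cdc20, Kif23, Hmmr and Dtl.

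In both populations, 12 members were higher in experimental cells without overlap, against 6.94% of all genes. The difference between the genotype differences, AECII minus AECI, was below 0 for 33 of 43 members and for 48.2% of all genes (51.8% above), with a median of -0.75 against 0.03 over all genes. It was larger for mitosis genes (median -0.95, 21 of 25 below 0) than for replication genes (median -0.20, 12 of 18). No member passed the limma test of this interaction, nor did any gene (0%), and 0 passed with a trend in the prior. At an unadjusted p under 0.05, 7 members were below 0 and 0 above, against 5.02% and 3.6% of all genes. Bub1b had the smallest of these p-values, with an interaction of -3.19 (SE 0.80, limma adjusted p = 0.538). It was followed by Ube2c at -1.80 (SE 0.61, adjusted p = 0.538), Cdc20 at -0.95 (SE 0.33, adjusted p = 0.539), Bub1 at -1.46 (SE 0.52, adjusted p = 0.544), Aurkb at -0.90 (SE 0.34, adjusted p = 0.549), Nusap1 at -2.60 (SE 1.04, adjusted p = 0.57) and Mcm2 at -1.69 (SE 0.69, adjusted p = 0.576). Of these 7 genes 6 belong to the mitosis list, and Mcm2 is a replication gene. Without AECI experimental 2, 2 members lay below 0 under that unadjusted limit and the median was -0.60. Leaving out any 1 of the AECII arrays left 2 to 4, and without both arrays of male pattern there were 5, with a median of -0.63.

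**Figure D3:**
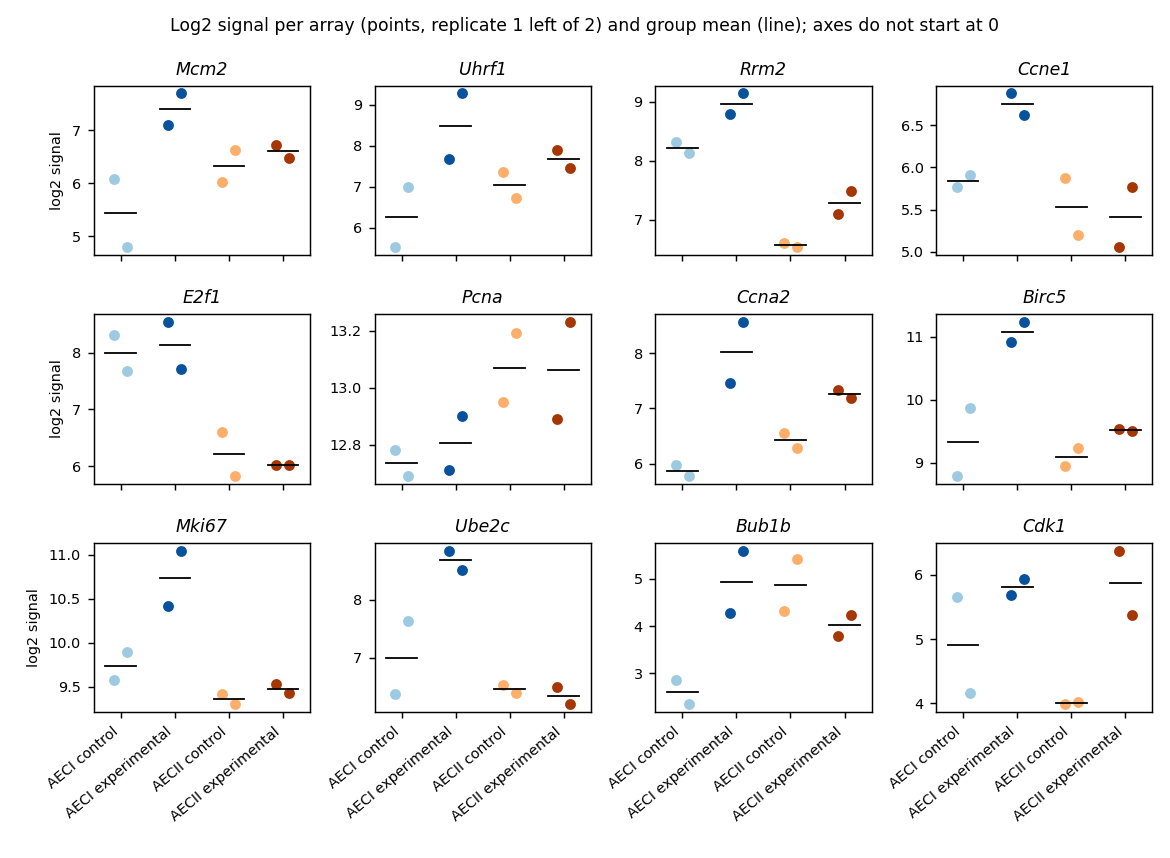
Log2 signal of 12 members on each array, with points for replicates 1 and 2, a line for the group mean, and a vertical axis of its own for each gene that does not start at 0. Both AECI experimental points lie above every other array for Mcm2, Rrm2, Ccna2, Birc5, Mki67, Ube2c and Ccne1, while E2f1 separates AECI from AECII in either genotype and Pcna stays within 12.69 and 13.23.

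The comparison of populations in control lungs asks how AECII differed from AECI in the samples without the label Fgfr2bflox. Members were split, 21 higher and 22 lower in AECII, where 50.3% and 49.7% of all genes were, with a median of -0.11 against 0.00 over all genes. The median was -0.34 for replication genes and 0.02 for mitosis genes. The next brightest spot had the same sign for 13 of 20 members, the others being Mcm6, Uhrf1, Dtl, Foxm1, Ttk, Cenpf and Hmmr. The limma test called 1 member, Rrm2, lower in AECII, where 1.53% of all genes were called lower and 1.3% higher. An unadjusted p under 0.05 was reached by 3 members higher and 4 lower, against 8.6% and 8.12% of all genes. The groups did not overlap for 10 members higher and 12 lower, against 23.5% and 22.1%. Without both arrays of male pattern 18 members were higher and the median was -0.27. The median turned to 0.08 without AECI control 2 and to 0.03 without AECII control 2, and the replication median less the mitosis median moved from -0.36 to -0.69 without AECII control 1. At the unadjusted limit there were 5 members higher and 8 lower without AECI control 1, 5 higher and 5 lower without AECI control 2, and 1 higher and 4 lower without AECII control 1.

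Rrm2 read 8.31 and 8.13 in control AECI and 6.60 and 6.53 in control AECII, and fell by 1.66 (log2, SE 0.26, 3.15-fold, adjusted p = 0.0341 in limma). This call was lost without any single array, with adjusted p of 0.0529 to 0.208, while the difference stayed between -1.75 and -1.57. Without both arrays of male pattern it was -1.53 (adjusted p = 0.298). Its partner Rrm1 read 10.31 and 10.22 against 9.31 and 9.20 (-1.01, SE 0.26, adjusted p = 0.119), so that both subunits lay lower in AECII without overlap. E2f1 read 8.32 and 7.67 against 6.60 and 5.83 (-1.78, SE 0.42, adjusted p = 0.0929), and Ccne2 read 5.45 and 6.66 against 4.10 and 4.39 (-1.81, SE 0.43, adjusted p = 0.0917). With a trend in the prior, Rrm1 (adjusted p = 0.00988) and E2f1 (adjusted p = 0.0226) passed beside Rrm2 (adjusted p = 0.00462), where 3.76% of all genes were called lower.

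Of the spindle checkpoint genes, Bub1 and Bub1b lay the other way, while Ttk overlapped (2.22 and 4.12 in control AECI, 3.39 and 3.0 in control AECII, difference 0.02, SE 0.59). Bub1 read 6.06 and 6.04 in control AECI and 7.73 and 7.19 in control AECII (1.41, SE 0.37, adjusted p = 0.119), and with a trend in the prior it was the 1 member called higher (adjusted p = 0.0493), where 4.14% of all genes were. The next brightest spot of Bub1 differed by only 0.09 in this comparison. Bub1b read 2.86 and 2.34 against 4.31 and 5.42 (2.27, SE 0.57, adjusted p = 0.107). Cdc20, which the checkpoint restrains, read 8.49 and 8.61 against 9.10 and 9.25 (0.62, SE 0.23, adjusted p = 0.251). Nusap1, a microtubule protein of the spindle, read 2.47 and 4.95 against 5.31 and 5.03 (1.45, SE 0.74), and Tyms read 7.40 and 7.99 against 8.40 and 8.67 (0.84, SE 0.38). The next brightest spot of Tyms gave 0.07. Cdk1 read 5.65 and 4.16 against 3.98 and 4.02 (-0.90, SE 0.56), Cdt1 5.72 and 5.81 against 5.30 and 4.74 (-0.75, SE 0.38), and the midzone motor Kif20a 7.12 and 6.48 against 5.24 and 5.93 (-1.22, SE 0.61). None of these passed. By the brightest spot of each gene, control AECI was the lower population for Bub1 and Bub1b and the higher one for ribonucleotide reductase and E2f1.

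In experimental lungs the same comparison of populations was one-sided. Signals were lower in AECII for 40 of 43 members, where 49.6% of all genes were lower and 50.4% higher, with a median of -0.78 in each list and over all members, against 0.01 over all genes. The next brightest spot had the same sign for 13 of 20 members, the others being Cdc6, Mcm3, Mcm7, Dtl, Tyms, Cenpf and Prc1. With the second brightest spot of each gene that had one, 35 of 43 members were lower, and 12 of 18 replication genes. The limma test again called 1 member, Rrm2, lower, where 1.27% of all genes were called lower and 1.28% higher. At an unadjusted p under 0.05, 11 members were lower and 0 higher, against 11.1% and 10.5% of all genes. The groups did not overlap for 25 members that were lower and for 0 that were higher, against 26.7% and 28.2% of all genes. With a trend in the prior 8 members were called lower and 0 higher, against 5.39% and 5.66% of all genes, namely Rrm1, Rrm2, E2f1, Mki67, Aurkb, Birc5, Ube2c and Kif23. Without AECII experimental 1, 7 members were lower at the unadjusted limit in place of 11.

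Rrm2 read 8.79 and 9.14 in experimental AECI and 7.09 and 7.49 in experimental AECII, and fell by 1.67 (SE 0.26, 3.18-fold, limma adjusted p = 0.0364). Leaving out any single array again raised its adjusted p past the threshold, to between 0.0515 and 0.233, with differences of -1.87 to -1.47. Ube2c read 8.85 and 8.52 against 6.50 and 6.20 (-2.34, SE 0.43, 5.05-fold, adjusted p = 0.0519), the largest difference of a member here. E2f1 read 8.54 and 7.72 against 6.03 on both arrays (-2.10, SE 0.42, adjusted p = 0.0608). All of these genes were apart by more than 1 log2 unit on every array.

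Mki67 read 10.42 and 11.05 in experimental AECI and 9.53 and 9.43 in experimental AECII (-1.25, SE 0.30, adjusted p = 0.0795). Birc5 read 10.91 and 11.23 against 9.54 and 9.51 (-1.55, SE 0.39, adjusted p = 0.0892), and Aurkb 9.08 and 8.94 against 8.0 and 8.23 (-0.89, SE 0.24, adjusted p = 0.0995). Kif23, a motor that builds the midzone, read 8.41 and 9.40 against 7.34 and 7.47 (-1.50, SE 0.45, adjusted p = 0.129), and Tpx2 read 6.77 and 7.87 against 6.29 and 4.79 (-1.78, SE 0.72, adjusted p = 0.221). Of the replication genes, Ccne1 read 6.88 and 6.63 against 5.05 and 5.77 (-1.34, SE 0.36, adjusted p = 0.1), Gins2 8.65 and 8.32 against 7.25 and 7.90 (-0.91, SE 0.30, adjusted p = 0.152), Rrm1 10.42 and 10.83 against 9.95 and 9.60 (-0.85, SE 0.26, adjusted p = 0.138) and Mcm5 7.02 on both against 5.51 and 6.32 (-1.10, SE 0.50, adjusted p = 0.27). Experimental AECI was the higher population on both arrays for each of them. The 3 members with a higher mean in experimental AECII were Pcna (0.26), Cdk1 (0.07) and Cenpf (0.08), and all of them overlapped.

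The 2 population comparisons share no arrays with each other, but each shares its arrays with the genotype comparisons, so the values stand side by side and no overlap of calls is given. Rrm2, Rrm1 and E2f1 differed between the populations by much the same amount in both genotypes, at -1.66 and -1.67, -1.01 and -0.85, and -1.78 and -2.10. Bub1b (2.27 in control and -0.92 in experimental lungs) and Nusap1 (1.45 and -1.15) had opposite signs.

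**Figure D4:**
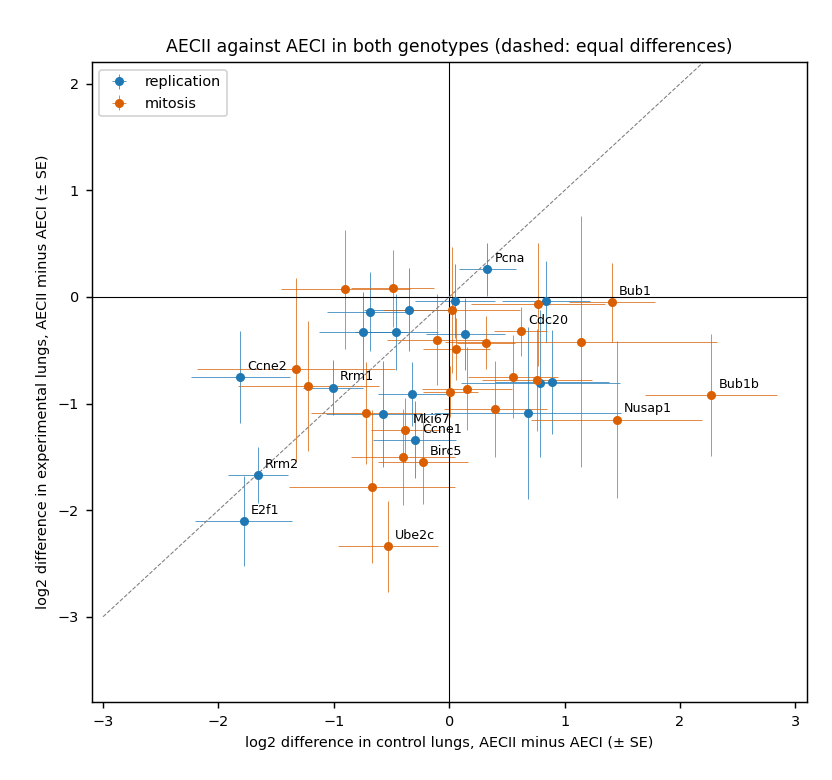
Log2 difference AECII minus AECI in control lungs (horizontal) against the same difference in experimental lungs (vertical) for each member, with bars of 1 SE and a dashed line of equal differences. Rrm2, Rrm1 and E2f1 lie near the line, most members lie below it, and Bub1b, Nusap1 and Bub1 lie farthest to the right.

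Other genes of the same pathways were read from wider lists, chosen by function. Of 49 other measured replication genes, 40 were higher in experimental than control AECI (median 0.43), and of 71 other mitosis genes 49 were higher (median 0.56). None passed the limma test there, while 9 and 21 were higher, and 2 and 1 lower, at an unadjusted p under 0.05, which 7.22% of all genes passed as higher and 5.21% as lower. The largest of the named ones were E2f8, a repressor that closes S phase (3.34, SE 0.55, adjusted p = 0.217), and Nek2, a centrosome kinase (3.35, SE 0.51, adjusted p = 0.217). E2f8 read 2.58 and 2.76 in control and 6.37 and 5.65 in experimental AECI, and Nek2 1.79 and 3.35 against 6.14 and 5.70. Both E2f8 controls, and Nek2 on AECI control 1, lay below the lower quartile of spots (3.07), where differences are approximate. In AECII 34 of 49 and 48 of 71 were higher (medians 0.29 and 0.42), and 0 passed, with 5 and 8 higher and 1 and 2 lower at an unadjusted p under 0.05, which 4.15% passed as higher and 4.09% as lower. In control lungs, where limma called 1.3% of all genes as higher in AECII and 1.53% as lower, 3 of these genes rose in AECII against AECI, which were Asf1b, a histone chaperone (1.93, SE 0.35, adjusted p = 0.0476), Nek2 (3.47, SE 0.51, adjusted p = 0.0273) and Arhgap11a (1.25, SE 0.23, adjusted p = 0.0488), and 0 fell. In experimental lungs, where 1.27% of all genes were called as lower, Depdc1a fell (-1.72, SE 0.24, adjusted p = 0.0269) and no other gene of these lists passed. Asf1b read 4.32 and 5.05 in AECI control and 6.38 to 7.05 on the other arrays, and Nek2 was likewise lowest in AECI control. The Nek2 difference between control populations thus also uses a value below that quartile and is approximate.

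Known regulators of both waves were split. Of 15 genes of the retinoblastoma family, their E2F and DP partners, the MuvB core and the Mybl factors, 5 were higher in experimental than control AECI (median -0.13). In AECII 11 were higher (median 0.10). Of all genes 52.6% were higher in AECI and 55.4% in AECII. The limma test was passed by 0 of the 15 in either population. At an unadjusted p under 0.05, 1 was higher and 2 lower in AECI, against 7.22% and 5.21% of all genes. In AECII it was 0 and 1, against 4.15% and 4.09%. E2f4, the E2F of the resting cell complex, differed by -1.56 in AECI (SE 0.40, adjusted p = 0.268) and E2f6, a repressor, by 0.91 (SE 0.25, adjusted p = 0.28). Lin9, a MuvB subunit, differed by -1.10 in AECII (SE 0.23, adjusted p = 0.529). With a trend in the prior, 1 of the 15 regulators passed as lower in AECII (limma adjusted p = 0.0385), as did 0.197% of all genes. In AECI 0 passed with that prior.

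Marker genes of other cells also had different means between genotypes, but none of the mesenchymal, club, ciliated, AT1 or AT2 markers passed the limma test in either population. In AECI, where 52.6% of all genes were higher, 10 of 12 mesenchymal markers were higher in experimental cells (median 0.89, smallest adjusted p = 0.218), with a summed level of 13.77 to 13.96 in control and 14.12 to 14.23 in experimental arrays, and 0 of them had a mean below the lower quartile in either group. Club cell markers were higher for 5 of 5 (12.48 to 12.67 against 12.90 to 13.86, smallest adjusted p = 0.254), with Sox2 below the lower quartile in both. AT1 markers were lower for 11 of 12 (median -0.35, 17.20 to 17.32 against 16.93 to 16.98, smallest adjusted p = 0.296), and AT2 markers differed by a median of 0.07. With a trend in the prior 2 mesenchymal markers and 1 club marker passed as higher in AECI, as did 0.165% of all genes. Alas2, an enzyme of heme synthesis in red cells, was the 1 gene called in this comparison. It read 9.11 and 9.03 against 3.64 and 3.77, and fell by 5.36 (log2, SE 0.22, adjusted p = 0.00428 in limma). Of the 8 erythroid markers, Alas2 included, 4 were higher and 4 lower. In AECII, where 55.4% of all genes were higher and 27.3% were higher without overlap, club markers were higher for 5 of 5 without overlap (median 0.84, 15.25 to 15.33 against 15.84 to 16.17) and ciliated markers for 8 of 10 without overlap (median 1.29, 14.92 to 15.06 against 15.10 to 15.23). AT1 markers were lower there for 9 of 12 (median -0.13, 15.28 on both control arrays against 15.08 to 15.18), and 3 of them passed as lower with a trend in the prior, as did 0.197% of all genes. Of 12 mesenchymal markers 7 were higher in AECII (median 0.40, 13.46 to 13.47 against 13.47 to 13.54). Endothelial markers were higher there for 6 of 7, all 6 without overlap (median 0.59, 8.06 to 8.22 against 8.69 to 8.74). In AECI 5 of these 7 were lower instead (median -0.59). Alas2 lay lower in AECII as well, at 9.23 and 9.17 against 6.05 and 6.02, although limma called no gene there. Of the 8 erythroid markers 3 were higher and 5 lower in AECII. The part of these markers in the differences of the replication and mitosis genes was not tested.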

How the data were processed

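Expression was measured on 8 single-colour arrays, 1 per sample, from amplified RNA labelled with Cy5 (2 µg amplified cDNA). The authors had normalized the deposited values between arrays, and they are log2 signals as judged from their range of 1.34 to 16.0. Sorted values of the arrays matched to within 0.0056, and no normalization was added. Limma is named, with no version, in the submitters' processing notes, and no source read here names a background correction. Detection flags were not used, and precision is limited by the number of arrays. The platform annotation gave 43941 of 62976 spots a single symbol and 19035 none. After symbols had been updated through RefSeq, 24306 genes were each represented by their brightest spot. Limma (version 3.58.1, R 4.3.3) was fitted with 4 group means over 8 arrays and eBayes (4 residual and 2.26 prior degrees of freedom), and p-values were adjusted by Benjamini-Hochberg over all 24306 genes within each of the comparisons, at a threshold of 0.05. The fit was checked on simulated data. Medians over members carry no test.

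The members and lists were chosen with earlier results of these data known. Named were members past the threshold and the 6 of smallest p from each list in each comparison, and a few well known cell cycle genes. Further members stand as examples of their role and were chosen after their values were seen. Alternatives covered the normalization, spots per gene, a filter on dim genes, the variance prior, array weights, the replicate number, sex-linked transcripts, single arrays left out, and the promoter window. The paper supplied with the series describes another experiment, and its methods were not used. Tables and plots were made with Python 3.11.15, numpy 2.4.6, pandas 2.3.3, scipy 1.17.1 and matplotlib 3.10.9.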

Additional observations from a re-analysis of the deposited data

Results flagged for a closer look

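Each of 3 mitosis genes was higher on every experimental array in AECI and lower on every experimental array in AECII than on the controls, a pattern held by 3.89% of all genes, and in none of them did the difference between populations pass the limma test. For Bub1b the genotype difference was 2.33 in AECI and -0.85 in AECII, and the difference between these was -3.19 (adjusted p = 0.538). For Nusap1 it was -2.60 (adjusted p = 0.57), and AECI control 1 stood lowest at 2.47, below the lower quartile of spots. For Aurkb it was -0.90 (adjusted p = 0.549), with 0.20 in AECI and -0.71 in AECII.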

How the results depend on the processing

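With 2 arrays per group few genes can pass the threshold, and the side of it depended on the variance prior. In AECI the genotype test called 1 member with a trend in the prior and 2 with a robust prior and a trend, beside 74 and 96 of all genes. For the populations in control lungs it called 4 members with a trend, 4 with a robust prior and a trend, and 4 among genes above the array median, in place of 1. Of all genes these settings called 1920, 1957 and 1548, in place of 689. In experimental lungs these settings called 8 members each, beside 2685, 2747 and 2266 of all genes, in place of 618. Quantile normalization over named genes, the mean of all spots and array weights called 2 each, beside 697, 770 and 772 of all genes. Rrm2 has a single spot, so its own values stay the same when the second brightest spots of other genes are read. The only call, Rrm2, was lost (0 members) in both population comparisons with the second brightest spot of each gene, the male pattern as a covariate, without both arrays of male pattern, and with the compared arrays alone. With single arrays left out, a lone array taken to vary as arrays of other groups do, the counts ran from 0 to 1 in both, and 0 to 0 in AECI. The 1 was then Nusap1 in control lungs (without AECI control 2) and Ube2c in experimental lungs (without either AECI control array), not Rrm2.

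The replicate numbers did not pair the samples, as same-numbered arrays deviated with correlations of -0.103 to 0.04, and with the replicate block 0 members were called in either population comparison and in each genotype comparison.

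The median difference in AECI was 0.79 with the male pattern as a covariate, 0.83 without both such arrays, and 0.83 to 1.13 with single arrays left out. In AECII it was 0.49 with the second spots, 0.16 with the covariate and 0.17 to 0.31 with single arrays left out. Between populations it was -0.43 with second spots, -0.27 without both male arrays and -0.22 to 0.08 in control lungs, and -0.96 to -0.56 in experimental lungs. For the interaction it was -0.54 with the mean of spots, -0.32 with second spots and -0.83 to -0.57. Centring each array over named genes moved the median of all genes in AECI from 0.04 to -0.08 and that of the members to 0.85.

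The replication median less the mitosis median in AECI was -0.55 among genes above the array median, -0.60 without both male arrays and -0.96 to -0.44 with single arrays left out. In AECII it turned from 0.24 to -0.09 with the covariate (-0.03 to 0.25 with single arrays left out). In control lungs it was -0.68 with the mean of spots and -0.69 to -0.25. In experimental lungs it was 0.38 with second spots, 0.24 above the array median and -0.03 to 0.33. For the interaction it was 1.03 with second spots, 0.55 without both male arrays and 0.51 to 0.97.

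Signs turned in AECII for Dtl with its second spot (1.42) and for Hmmr with its second spot (1.35) and the mean of its spots (0.44), and in the interaction with second spots for Tyms (0.78) and Dtl (2.28). The cause was not tested. Read only before the start, CHR letters stood in 38.1% of mitosis windows, and E2F, CHR and CCAAT letters in 7.97%, 17.4% and 34.5% of all promoters.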

Other observations

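The 2 brightest spots of Birc5, annotated to different transcripts, gave unlike values in AECII between genotypes and between control populations. They differed by 1.75 and 1.41 between genotypes in AECI, brightest first, but by 0.43 and 2.08 in AECII. Between control populations the differences were -0.23 and -2.27, and between experimental populations -1.55 and -1.60. Uhrf1, another member with spots annotated to different transcripts, gave 2.22 and 1.0 between genotypes in AECI and 0.79 and -1.06 between control populations. These pairs were singled out after their values were seen, and no test was run on them.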
